A study of Mus musculus with 21 samples.

Results

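The genes described here are the molecular chaperones of the heat shock and DnaJ families. They were chosen by symbol, as every gene beginning Hspa, Hspb, Hspd, Hspe, Hsph, Dnaja, Dnajb or Dnajc with a number, or Hsp90, and pseudogene symbols ending in -ps (14 of them) were left out. The rule found 72 genes among the 35550 of the cell line values: 14 of the HSP70 family (Hsph1 included), 3 of HSP90, 2 chaperonins, 8 small heat shock proteins, and 4 DNAJA, 13 DNAJB and 28 DNAJC genes. Expression was measured by RNA sequencing in 21 mouse libraries and is given in TPM (a level per transcript length, relative to all transcripts of the library). RAW264.7, a virus-transformed mouse macrophage-like line, had 3 groups at 24 h, all wild type (WT): PBS, LPS at 1 µg/mL, and the same LPS plus CTM at 0.5 mM. It had 4 groups at 12 h, WT with PBS, WT with LPS at 1 µg/mL, and Vim-KO cells, labelled as a knockout of the intermediate filament gene Vim, under the same PBS or LPS. Each cell line group held 2 libraries. Mouse liver (C57BL/6J, intraperitoneal injection) had 7 groups of 1 library: WT with PBS, with LPS at 30 mg/kg, and with that LPS plus CTM at 100 mg/kg; WT with LPS without and with liver macrophage depletion, for which no dose is given; and TG2-KO with PBS or with LPS at 30 mg/kg. LPS, from the outer wall of Gram-negative bacteria, activates macrophages, CTM is named as the labels give it, and TG2 is the product of Tgm2. The labels give no age, no time after injection, no number of Vim-KO clones and no word on whether the 2 libraries of a group were separate cultures. The p-values therefore reflect just the variation among these libraries, and it may be technical.

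Heat shock proteins hold unfolded or partly folded proteins and help them fold. HSP70 proteins bind short exposed stretches in cycles of ATP use. DnaJ proteins bring clients to them and start ATP hydrolysis, and HSP110 relatives such as Hsph1 and Hspa4 release the nucleotide. HSP90 acts later, on signalling proteins among others, and separate sets serve the cytosol, the endoplasmic reticulum (ER) and the mitochondria. Cytosolic members are classic targets of heat shock factor 1, which binds GAA units in alternating orientation. The ER members Hspa5 (BiP) and Hsp90b1 (GRP94) belong to the unfolded protein response, through the ER stress element.

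The promoters of some members are shown first, to let the ER and heat shock members be seen side by side. Hspa8, Hsp90aa1 and Hsp90ab1, on which the cytosolic results largely turn, had no promoter entry and are not shown. Sequences are upstream of the start, 5′ to 3′ on the gene's strand, from RefSeq on GRCm38.p6. In the first 3, which belong to ER chaperones, capitals mark the ER stress element (CCAAT, 9 bases of any kind, CCACG, on either strand). Hspa5 is shown at chr2:34771990-34772089 on the plus strand, Dnajc3 at chr14:118937802-118937931 on the plus strand and Hsp90b1 at chr10:86705524-86705664 on the minus strand, where the element occurs on each strand.
Hspa5: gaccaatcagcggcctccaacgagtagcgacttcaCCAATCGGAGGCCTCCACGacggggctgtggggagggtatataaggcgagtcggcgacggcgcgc
Dnajc3: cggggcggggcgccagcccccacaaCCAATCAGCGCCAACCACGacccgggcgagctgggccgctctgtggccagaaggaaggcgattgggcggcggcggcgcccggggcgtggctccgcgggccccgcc
Hsp90b1: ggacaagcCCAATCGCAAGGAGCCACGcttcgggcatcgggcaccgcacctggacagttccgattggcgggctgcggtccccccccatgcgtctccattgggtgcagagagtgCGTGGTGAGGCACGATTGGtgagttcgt
The next window, chr1:55088018-55088108, lies before the start of Hspe1 on the plus strand (55088148). Of the 2 starts that RefSeq gives for Hspd1 on the minus strand, the window lies before that at 55087932 and inside the stretch transcribed from that at 55088243. Capitals mark a run of TTC and GAA units.
Hspe1: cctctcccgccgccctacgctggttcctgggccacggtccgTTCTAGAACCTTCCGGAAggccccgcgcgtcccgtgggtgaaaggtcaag
The last window stands for Hspa1b (chr17:34959278-34959368, minus strand) and for Hspa1a (chr17:34972196-34972286, minus strand), whose windows are the same in every base (4 bases differ over the whole 300). Capitals mark the heat shock element GAANNTTC.
Hspa1b: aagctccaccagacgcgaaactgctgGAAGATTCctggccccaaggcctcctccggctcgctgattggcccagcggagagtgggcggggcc
Of the members, 58 had a promoter entry (250 bases before to 50 after the start). The element GAANNTTC, which reads the same on both strands, occurred in 14 of them (24.1%) and in 9.04% of the 27025 genes with an entry. With a further GAA or TTC unit beside it, a longer form that contains the first, it occurred in 4 (Dnajb6, Hspd1, Hspe1 and Hsph1, 6.90% against 0.662%). The matches of Hspd1 and Hspe1 are the same bases read on opposite strands, counted for each gene here and among the 14. The ER stress element occurred in the 3 members shown (5.17% against 0.137%). Its second form (ATTGG, any base, CCACG) occurred in Dnajb11, an ER DnaJ protein (1.72% against 0.0444%). The longer form and the second form were chosen after the data had been seen. A match is a description of these letters, not a measured binding site.

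In the cells, 5 genes made up most of the chaperone message. Hspa5, Hspa8 (the constitutive cytosolic HSC70), Hsp90aa1 and Hsp90ab1 (the inducible and constitutive cytosolic HSP90) and Hsp90b1 held 57.8% to 71.98% of the summed TPM of the 72 members in every library. At 24 h the sum itself was 10111 and 9877 TPM in the PBS libraries, 7710.1 and 7587 TPM in the LPS libraries and 9274 and 9417 TPM in those given CTM as well. LPS thus gave the lowest sums of that experiment, with CTM between. At 12 h the sums were 9128 and 9168 TPM in WT with PBS, 11018 and 11265 TPM in WT with LPS, 12083 and 12074 TPM in Vim-KO cells given PBS, and 14140.3 and 14002 TPM in Vim-KO with LPS, with no overlap between any of the 4 groups. At the other end, 5 genes (Dnajb3, Dnajb8, Dnajc5g, Hspb2 and Hspb3) were listed at 0 in all 14 cell line libraries. The stress-inducible small heat shock gene Hspb1 was listed at 0 in 13 of the 14. Hspa1a, an inducible HSP70, did not exceed 0.128 TPM, while its close paralog Hspa1b, with which it can share reads, reached 9.07 TPM. Members had to average 1 TPM or more in an experiment to be tested, and 54 were tested at 24 h and 54 at 12 h, 53 of them in both, and 17 were tested in neither (highest value 0.961 TPM).

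**Figure D1:**
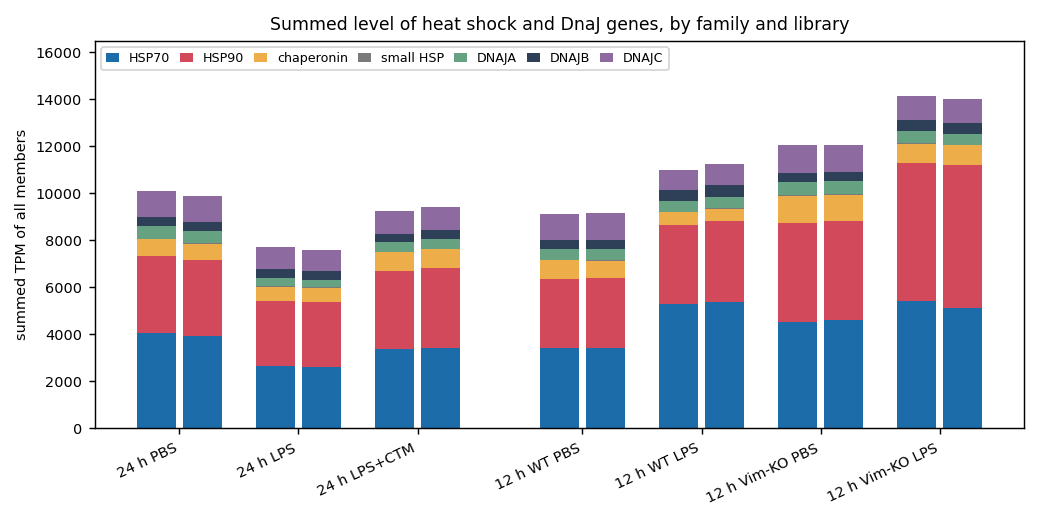
Summed TPM of the 72 genes in each cell line library, stacked by family (1 bar per library, 2 per group; the 24 h groups are on the left and the 12 h groups on the right). HSP70 and HSP90 fill most of every bar; the 24 h LPS bars (7710.1 and 7587 TPM) are the lowest and the 12 h Vim-KO LPS bars (14140.3 and 14002 TPM) the highest.

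At 24 h, LPS lowered the abundant ER chaperones Hspa5 and Hsp90b1 and the cytosolic Hspa8. The PBS libraries held 1519.5 and 1434 TPM of Hspa5 and the LPS libraries 811 and 768 TPM, while Hsp90b1 went from 955 and 921 to 575 and 553 TPM. No LPS library reached the PBS range for either gene (Hspa5 log2 change -0.90 ± 0.05, adjusted p = 5.44e-06; Hsp90b1 -0.73 ± 0.04, adjusted p = 9.87e-06; SE after ±, adjusted p from limma over all genes tested). Dnajc3, an ER DnaJ protein that inhibits the kinase PERK, went from 45.0 and 43.2 to 15.8 and 15.0 TPM, the largest fall of the families (-1.46 ± 0.08, adjusted p = 7.53e-06). Over all members, 11 rose and 21 fell of 54 tested, where 20.9% of all genes tested rose and 45.1% fell, so both shares lay near those of all genes. The median log2 change was -0.19 in the members and -0.23 in all genes tested. Scaling the libraries by median ratios moves the median of all genes from -0.23 to 0.0063, and the members then split into 16 higher and 16 lower of 53. Directions are therefore given below with the scaled values where they change a call.

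Among cytosolic members, Hspa8 held 1569 and 1549.9 TPM in the PBS libraries and 853 and 875 TPM in the LPS libraries (-0.85 ± 0.04, adjusted p = 2.58e-06). Its DnaJ partner Dnaja1 was at 322 and 322 and 149 and 135 TPM (-1.18 ± 0.06, adjusted p = 5.5e-06), and Dnajb1, the HSP40 of the heat shock response, at 20.5 and 20.4 and 9.86 and 9.33 TPM (-1.02 ± 0.11, adjusted p = 0.000148). In all 3 genes the LPS libraries lay well below both PBS libraries. Dnajc7, which binds HSP70 and HSP90 through TPR repeats, fell too (-0.96 ± 0.07, adjusted p = 2.76e-05). Hsp90ab1 fell by 0.23 as deposited, but its change was 0.03 after scaling (adjusted p = 0.637). Hspd1, the mitochondrial HSP60, fell by 0.34 and did not pass after scaling (-0.09, adjusted p = 0.185). Of 13 ER-resident members, 4 rose and 6 fell (4 and 5 after scaling), of 9 mitochondrial members 1 rose and 4 fell (2 and 3), and of 10 in the cytosolic heat shock core 2 rose and 6 fell (3 and 4). As deposited, 46.2%, 44.4% and 60% of these lists fell, beside 45.1% of all genes. The ER-resident and mitochondrial shares that fell thus lay near that of all genes.

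Some members went the other way. Hspa4l, an HSP110 relative, rose from 62.3 and 68.6 to 131 and 123 TPM (0.94 ± 0.07, adjusted p = 2.87e-05). Dnajb9 (ERdj4), an ER co-chaperone, rose from 9.17 and 9.55 to 18.2 and 17.6 TPM (0.87 ± 0.13, adjusted p = 0.000755), so the ER set did not move as 1 block. Dnajc1, an ER membrane DnaJ protein, went from 20.2 and 21.0 to 34.1 and 32.1 TPM (0.66 ± 0.10, adjusted p = 0.000981), and Dnajc18 from 10.7 and 17.8 to 25.2 and 33.5 TPM (1.02 ± 0.23, adjusted p = 0.00548). For Dnajc18 the PBS libraries differed most of all members, by 0.69 on the log2 scale. Hsp90aa1 (0.36 ± 0.05, adjusted p = 0.000768) and the mitochondrial HSP70 Hspa9 (0.21 ± 0.05, adjusted p = 0.00532) rose by less.

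With CTM added to LPS at 24 h, 5 of the 13 ER-resident members were higher than with LPS alone, Hspa5, Hsp90b1 and Dnajc3 among them. Hspa5 reached 1271 and 1306 TPM (0.71 ± 0.05, adjusted p = 0.000376), Hsp90b1 807 and 825 TPM (0.53 ± 0.04, adjusted p = 0.000553) and Dnajc3 27.7 and 28.3 TPM (0.82 ± 0.08, adjusted p = 0.001). All CTM libraries of these genes lay between the LPS and the PBS libraries. Hspd1 reached 616 and 610.1 TPM with CTM, above its LPS libraries (435 and 416 TPM; 0.53 ± 0.05, adjusted p = 0.00096). The CTM libraries also lay above its PBS libraries (561 and 520.1 TPM), by 0.18, a call lost without the variance trend (adjusted p = 0.101). With single libraries left out, that difference from PBS was 0.13 to 0.24, and the call was lost for 3 of the 4 libraries. Hspa8 was at 1063 and 1042 TPM (0.28 ± 0.04, adjusted p = 0.00281) and Hsp90ab1 at 1835 and 1891 TPM (0.32 ± 0.04, adjusted p = 0.00175). In all, 12 members were higher and 3 lower with CTM than with LPS, of 54 tested (12 and 6 of 53 after scaling), where 16.1% of all genes were higher and 9.45% lower. The median was 0.12 in the members and 0.07 in all genes. Of the other 8 ER-resident members none was lower as deposited and 1 was after scaling.

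The inducible Hspa1b stood apart in this comparison. Its PBS libraries held 9.07 and 8.58 TPM and its LPS libraries 4.53 and 6.64 TPM, and the CTM libraries were the lowest, with 0.907 and 1.48 TPM (-1.58 ± 0.22, adjusted p = 0.00304). Its promoter window equals that of Hspa1a, the 2 genes are close paralogs that can share reads, and the sum of both in the CTM libraries was 0.907 and 1.48 TPM. Its difference between LPS and PBS (-0.60 ± 0.22, adjusted p = 0.0419) was lost after scaling (adjusted p = 0.191), with a pseudocount of 0.1 (0.0758), without the filter (0.0995), and when either PBS library or the LPS library numbered 2 was left out (adjusted p up to 0.205). Dnajb6, a suppressor of protein aggregation, was the other cytosolic member lower with CTM, with LPS libraries at 143 and 144 TPM and CTM libraries at 114 and 113 TPM (-0.33 ± 0.06, adjusted p = 0.00639; adjusted p = 0.0528 without the CTM library numbered 3). Hspb11, whose product also serves in cilia, was lower as well (-0.68 ± 0.16, adjusted p = 0.024), and this call was lost without either LPS library or the CTM library numbered 3 (adjusted p up to 0.131).

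The 2 comparisons at 24 h share the LPS libraries, so a high or low LPS value enters both with opposite sign. The changes of a gene in both are therefore given as values only, and no overlap is counted. Where CTM libraries are said to lie between LPS and PBS libraries, this is an order of values, and a return towards PBS was not tested. Among the members higher with CTM than with LPS, Dnajb11, Dnajb14, Dnajc7, Dnajc11 and Hspa4 lost the call when 1 or more single libraries were left out (adjusted p up to 0.0902, 0.136, 0.0669, 0.0577 and 0.0656). Against PBS, LPS plus CTM left 6 members higher and 14 lower of 54 (17.4% and 35.5% of all genes; 16 and 10 of 53 after scaling). The member median was -0.05 and that of all genes -0.16. Dnaja1 (-0.75 ± 0.06, adjusted p = 9.16e-05), Dnajb1 (-1.04 ± 0.11, adjusted p = 0.000269) and Hspa8 (-0.57 ± 0.04, adjusted p = 3.26e-05) stayed below PBS, as did Hspa1b (-2.17 ± 0.22, adjusted p = 0.000213). Dnajb1 held 9.97 and 8.99 TPM with CTM, and its difference from LPS alone did not pass (-0.02 ± 0.11, adjusted p = 0.927). Hspa5 and Hsp90b1 were lower than PBS by 0.20 as deposited, and neither passed after scaling (-0.02, adjusted p = 0.737, and -0.03, adjusted p = 0.658). Hspa4l stayed above PBS, at 130.4 and 134 TPM (1.01 ± 0.07, adjusted p = 4.16e-05).

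**Figure D2:**
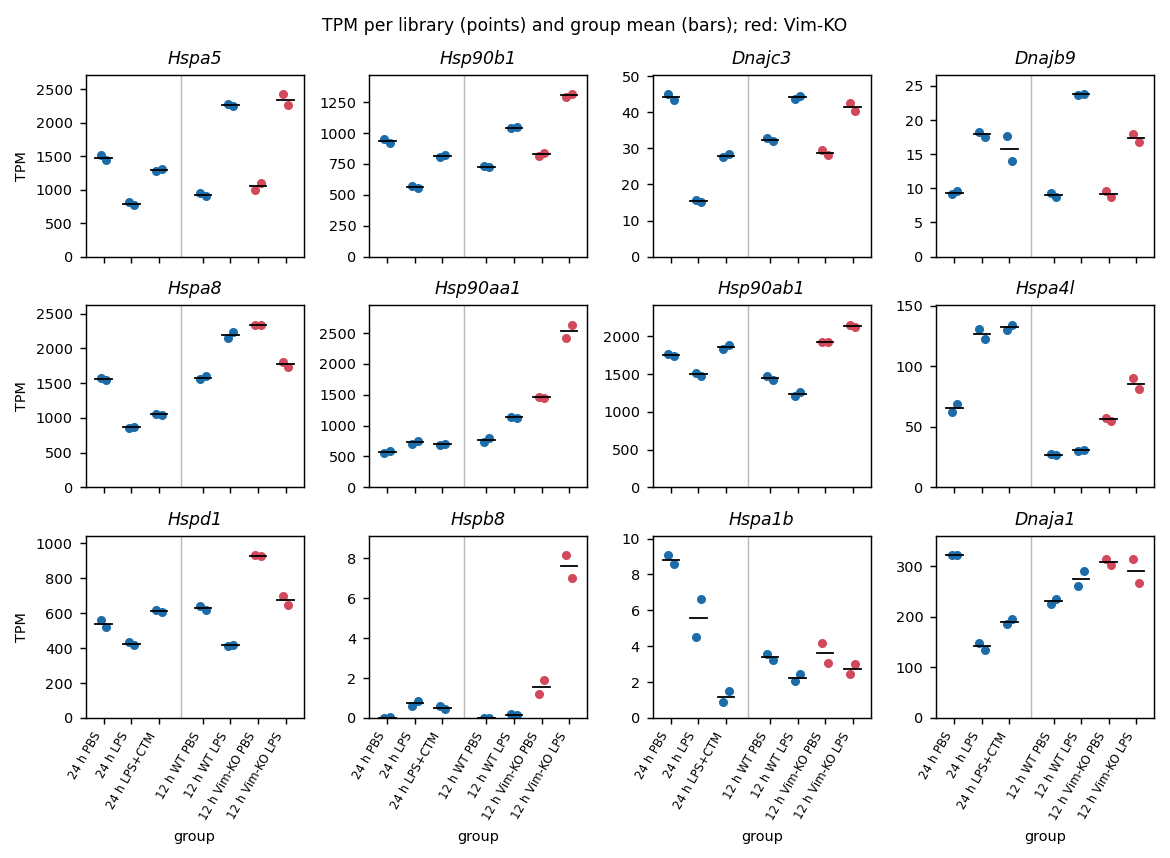
TPM of 12 members in each cell line library (points; bars are means of 2 libraries; y axes start at 0; red points are Vim-KO; the line parts the 24 h from the 12 h experiment). Hspa5, Hsp90b1 and Dnajc3 are low with LPS at 24 h and high with LPS at 12 h, Hspa8 falls with LPS in Vim-KO where it rises in WT, and Hspb8 is highest in Vim-KO with LPS (8.15 and 7.03 TPM).

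At 12 h, LPS raised 7 of 13 ER-resident members in WT cells, Hspa5, Dnajb9 and Hsp90b1 among them. Hspa5 went from 951 and 903 TPM with PBS to 2273 and 2253 TPM (1.29 ± 0.07, adjusted p = 1.64e-06), Dnajb9 from 9.35 and 8.76 to 23.7 and 23.8 TPM (1.30 ± 0.09, adjusted p = 6.5e-06), and Hsp90b1 from 731 and 727 to 1037 and 1045 TPM (0.51 ± 0.05, adjusted p = 4.41e-05). Every LPS library lay above both PBS libraries. The DnaJ partners of Hspa5 in the ER, Dnajb11 (0.47 ± 0.06, adjusted p = 0.000131) and Dnajc3 (0.43 ± 0.07, adjusted p = 0.000654), rose by less. Another 2 of the 13 ER-resident members fell (10 rose and 1 fell after scaling). Of all 54 members tested 17 rose and 20 fell, where 17.8% of all genes rose and 53.1% fell. After scaling, which moves the median of all genes from -0.35 to 0.0064, 27 rose and 11 fell. The member median was -0.09 as deposited against -0.35 in all genes.

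The cytosolic members split. Hspa8 rose from 1560.5 and 1598 to 2158 and 2243 TPM (0.48 ± 0.05, adjusted p = 0.000105) and Hsp90aa1 from 732 and 804 to 1147 and 1115 TPM (0.56 ± 0.07, adjusted p = 0.000159). Dnajb2, a DnaJ protein that binds ubiquitin chains, rose from 6.66 and 7.58 to 17.8 and 23.0 TPM, the largest rise (1.39 ± 0.15, adjusted p = 7.03e-05). Hsp90ab1 and Hspa4 fell by 0.23 and 0.25 as deposited, and both turned direction after scaling, to 0.16 (adjusted p = 0.0372) and 0.14 (adjusted p = 0.0369). The call of Hsp90ab1 was also lost without the WT PBS library numbered 1 (adjusted p = 0.0583). Of 11 members of the cytosolic core 5 rose and 3 fell, beside 17.8% and 53.1% of all genes (9 and 0 after scaling). Dnajb1 did not pass (PBS libraries 19.8 and 18.3 TPM, LPS libraries 21.3 and 22.1 TPM).

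Among mitochondrial and ribosome-linked members, Hspd1, Dnajc19, Hspa14 and Dnajc2 fell. Hspd1 fell from 640.2 and 617 to 414 and 420.1 TPM (-0.59 ± 0.06, adjusted p = 4.53e-05), and Dnajc19, a part of the inner membrane import motor, from 81.5 and 86.1 to 42.5 and 43.5 TPM (-0.95 ± 0.08, adjusted p = 2.05e-05). Hspa14 and Dnajc2, which form the ribosome-associated complex, fell together, Hspa14 from 80.2 and 76.6 to 40.1 and 36.4 TPM (-1.02 ± 0.07, adjusted p = 5.7e-06) and Dnajc2 from 131 and 126 to 81.0 and 81.1 TPM (-0.66 ± 0.06, adjusted p = 2.87e-05). The falls of these 4 genes kept their call after scaling, at -0.21, -0.57, -0.64 and -0.28. Of 9 mitochondrial members 5 fell (55.6%, near the 53.1% of all genes) and 0 rose (3 fell and 1 rose after scaling), and Hspa9 and Hspe1 did not pass. Dnajc9, a histone chaperone, fell from 69.9 and 72.9 to 25.2 and 22.2 TPM (-1.55 ± 0.08, adjusted p = 1.68e-06), and Dnajb14, an ER membrane DnaJ protein, from 18.8 and 22.4 to 5.10 and 4.07 TPM (-1.95 ± 0.15, adjusted p = 1.11e-05).

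Of the 53 members tested at both times, 6 were lower with LPS at 24 h and higher with LPS in WT at 12 h (11.3%, and 2.57% of the 10797 genes tested at both): Hspa5, Hsp90b1, Dnajb11, Dnajc3, Hspa8 and Dnaja1. The 3 with the ER stress element are among them, as is Dnajb11 with its second form, which was chosen after the data had been seen. A link between the element and these directions was not tested. The rise of Dnaja1 at 12 h (0.25, adjusted p = 0.0309) was lost without the variance trend (adjusted p = 0.0583), without the filter (0.0668) and without either WT PBS library or the WT LPS library numbered 2 (up to 0.176). Another 11 were lower at both times (20.8%, and 34.1% of all genes), among them Hspd1, Hspa14, Dnajc9 and Dnajc19. Higher at both were 5 (9.43%, near the 10.5% of all genes), which were Dnajb6, Dnajb9, Dnajc1, Dnajc5 and Hsp90aa1. The experiments differ in time and in RNA extraction date, and PBS levels also differed (Hspa4l 62.3 and 68.6 TPM at 24 h, 27.8 and 26.4 TPM at 12 h). Time and experiment cannot be told apart, and the difference between times was not tested.

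**Figure D3:**
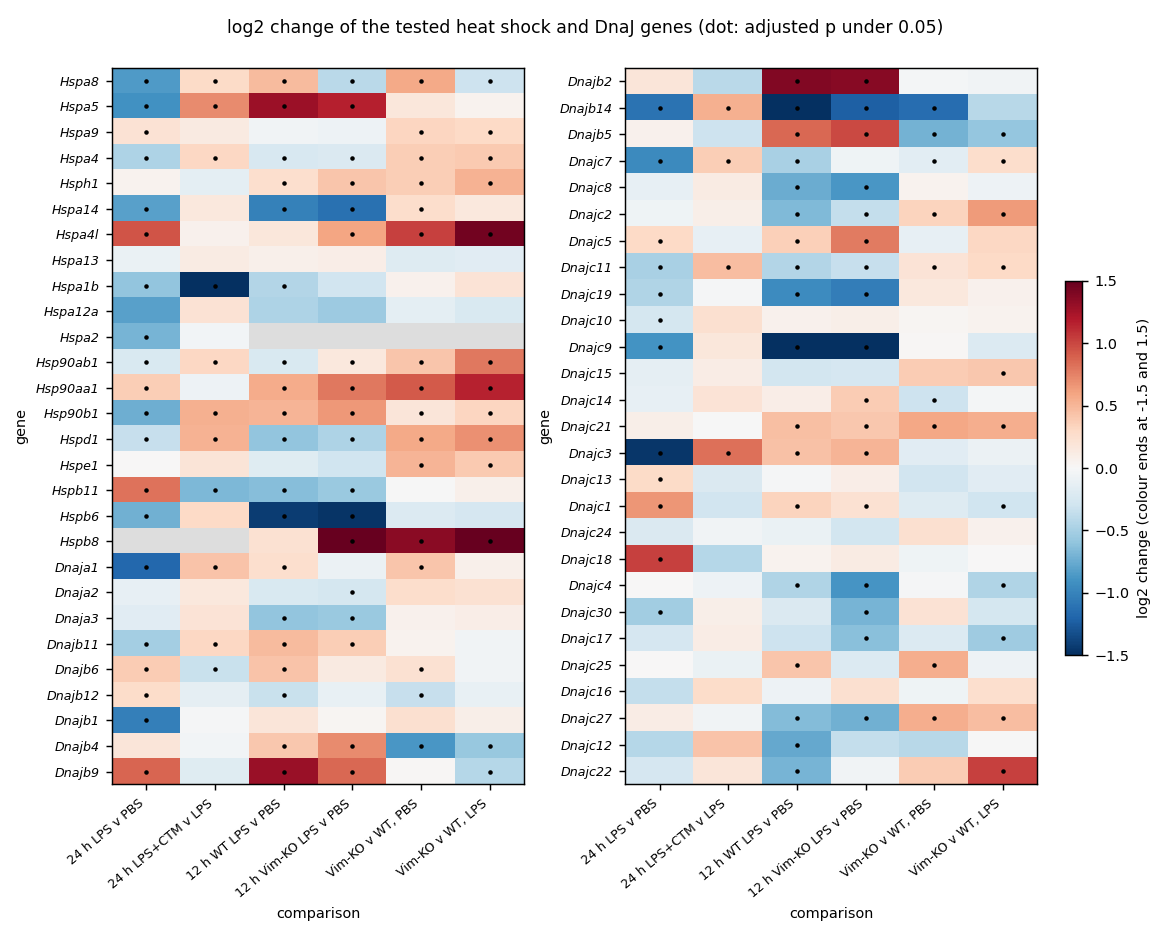
Log2 change of each member tested in either experiment (rows, in family order from HSP70 at top left to DNAJC; grey where not tested) in 6 comparisons (columns); red is higher, blue lower, and a dot marks an adjusted p under 0.05. The column of 24 h LPS is blue and that of 12 h WT LPS red for Hspa5, Hsp90b1, Dnajc3, Dnajb11, Dnaja1 and Hspa8, and the HSP90 and chaperonin rows are red in both Vim-KO columns.

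With PBS alone, 8 of 11 members of the cytosolic core were higher and 1 lower in Vim-KO than in WT, and 4 of 9 mitochondrial members were higher. Hspb8 is counted among these 8 and among the 19 given below. It passed the filter of 1 TPM only through its Vim-KO libraries, so its call lends no support. Vim itself stood at 1930.1 and 1877 TPM in WT with PBS and at 16.99 and 18.7 TPM in Vim-KO with PBS. With PBS, Hsp90aa1 was at 732 and 804 TPM in WT and 1471 and 1443 TPM in Vim-KO (0.92 ± 0.07, adjusted p = 3.08e-05), Hspa8 at 1560.5 and 1598 and 2342 and 2334 TPM (0.57 ± 0.05, adjusted p = 0.000119) and Hspd1 at 640.2 and 617 and 932 and 926 TPM (0.56 ± 0.06, adjusted p = 0.000174). Hspa4l was at 27.8 and 26.4 and 57.3 and 55.1 TPM (1.03 ± 0.08, adjusted p = 2.86e-05). In each of these genes the Vim-KO libraries lay above both WT libraries. Of 54 members 19 were higher and 6 lower (23 and 5 after scaling), where 17.7% of all genes were higher and 25.4% lower, and the medians were 0.11 and -0.05. The 19 include 6 of 10 HSP70 genes, all 3 HSP90 genes and both chaperonins, but 2 of 13 ER-resident members, with 2 lower. Hspa5, at 951 and 903 TPM in WT and 994 and 1099 TPM in Vim-KO, did not pass (0.17 ± 0.07, adjusted p = 0.0781). Without the WT PBS library numbered 1 the count of higher members was 12.

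With LPS the HSP90 genes and Hspa4l were again higher in Vim-KO. Hsp90aa1 was at 1147 and 1115 TPM in WT and 2416 and 2635 TPM in Vim-KO (1.16 ± 0.07, adjusted p = 1.07e-05), Hsp90ab1 at 1206 and 1268 and 2156 and 2130.2 TPM (0.79 ± 0.06, adjusted p = 2.52e-05), and Hspa4l at 30.2 and 31.0 and 90.0 and 81.1 TPM (1.45 ± 0.08, adjusted p = 5.25e-06). Of 54 members 17 were higher and 7 lower (15 and 10 after scaling), where 24.1% of all genes were higher and 20.6% lower; the medians were 0.06 and 0.04. The PBS and LPS comparisons share no library, and 14 members were higher in Vim-KO in both (25.9%, and 11.4% of all genes tested): Hsp90aa1, Hsp90ab1, Hsp90b1, Hspa4, Hspa4l, Hspa9, Hsph1, Hspd1, Hspe1, Hspb8, Dnajc2, Dnajc11, Dnajc21 and Dnajc27. Of these, Hsp90b1 and Hspe1 with PBS each lost the call whichever of the 4 libraries was left out (adjusted p up to 0.123 and 0.0756). Hspe1 with LPS lost it after scaling (adjusted p = 0.104) and without any of 3 libraries, both WT LPS libraries and the Vim-KO LPS library numbered 2 (up to 0.15). Hsph1 with PBS lost it without the WT PBS library numbered 1 or the Vim-KO PBS library numbered 2 (up to 0.0707), and Dnajc27 without 1 library with PBS and 2 with LPS (up to 0.0628 and 0.0835). Among the 14 higher in both comparisons, and so among the 17 higher with LPS, Hspb8 passed the filter of 1 TPM only through its Vim-KO libraries. Its calls lend no support. Dnajb4 and Dnajb5, relatives of Dnajb1, were lower in both (3.70% of members and 12.9% of all genes), Dnajb4 at 17.3 and 14.9 against 7.69 and 8.91 TPM under PBS (-0.88 ± 0.12, adjusted p = 0.000649) and 20.2 and 23.1 against 14.5 and 14.0 TPM with LPS (-0.57 ± 0.12, adjusted p = 0.00558).

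Other measures moved with the genotype. The summed level of 10 macrophage markers was 18392 to 18535 TPM in WT with PBS and 9793 to 9820.4 TPM in Vim-KO with PBS, with 9 of the 10 at 1 TPM or more in every library (Mrc1 was the exception). Lyz2 made most of that difference, at 13323 and 13402 TPM in WT and 5704 and 5485 TPM in Vim-KO, and the other 9 markers summed to 4990.3 to 5211 TPM and 4089 to 4336 TPM. Of the neutrophil list, S100a8 made nearly the whole sum, 894.7 to 910.3 TPM in WT with LPS and 13.2 to 13.9 TPM in Vim-KO with LPS, while Ly6g and Retnlg were at 0 in both. Hepatocyte, Kupffer cell, T cell and B cell lists summed to under 1 TPM in every cell line library. The part of these differences in the chaperone results was not tested, and in RNA from bulk samples fewer cells of a kind and less RNA per cell cannot be told apart. Whether the Vim-KO libraries came from 1 clone is not given, so clone and genotype cannot be told apart either.

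In Vim-KO cells LPS raised the ER chaperones Hspa5 and Hsp90b1 and the cytosolic Hsp90aa1. Hspa5 went from 994 and 1099 TPM with PBS to 2425 and 2262 TPM (1.16 ± 0.07, adjusted p = 2.88e-06), Hsp90b1 from 817 and 841 to 1293 and 1315 TPM (0.65 ± 0.05, adjusted p = 1.21e-05) and Hsp90aa1 from 1471 and 1443 to 2416 and 2635 TPM (0.79 ± 0.07, adjusted p = 2.42e-05). Of 54 members 17 rose and 18 fell (26 and 12 after scaling), where 20.5% of all genes rose and 45.8% fell, with medians of -0.08 and -0.23. Among the 17, Hspb8 passed the filter of 1 TPM only through its Vim-KO libraries. Of 13 ER-resident members 6 rose and 1 fell (10 and 1 after scaling). Of 9 mitochondrial members 0 rose and 6 fell (1 and 5 after scaling). Between the genotypes, 13 members rose with LPS in both (24.1%, and 13.5% of all genes tested) and 14 fell in both (25.9%, and 40.3% of all genes).

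The difference itself (LPS change of Vim-KO cells less the LPS change of WT cells) was tested as well, and limma called 6 members higher and 4 lower of 54 (3 and 5 after scaling), where 13.7% of all genes were higher and 6.96% lower. Both shares lay near those of all genes, and the medians were 0.02 in the members and 0.09 in all genes. Hspa8 had the largest negative value and opposite directions in the genotypes. It rose with LPS in WT (0.48 ± 0.05, adjusted p = 0.000105) and fell in Vim-KO, from 2342 and 2334 to 1805 and 1737 TPM (-0.40 ± 0.05, adjusted p = 0.000311; -0.14 and adjusted p = 0.0531 after scaling). The difference was -0.88 ± 0.08, adjusted p = 0.000231, and it stayed past the threshold under every alternative run, each library left out included, apart from the minimum log2 change of 1, which it does not reach. Vim-KO cells thus had more Hspa8 than WT with PBS and less with LPS (-0.31 ± 0.05, adjusted p = 0.00254). Hspb8, the small heat shock partner of Bag3 in selective autophagy, was listed at 0 in both libraries of WT with PBS, and its WT libraries with LPS held 0.176 and 0.172 TPM. The Vim-KO libraries, all above those of WT, held 1.22 and 1.92 TPM under PBS and 8.15 and 7.03 TPM under LPS. Its difference was 1.52 ± 0.26, adjusted p = 0.00575 on the scale of log2(TPM + 1), and with a pseudocount of 0.1 it was 0.78 and did not pass (adjusted p = 0.371). Hspb8 passed the filter of 1 TPM only through its Vim-KO libraries, so its calls between the genotypes are given as descriptions and lend no support.

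The LPS change of Hsp90ab1 was negative in WT and positive in Vim-KO (difference 0.38 ± 0.08, adjusted p = 0.0132), and the call was lost after scaling (0.26, adjusted p = 0.0556). Hspa4l rose in Vim-KO (0.60 ± 0.08, adjusted p = 0.000206) and did not pass in WT (0.17 ± 0.08, adjusted p = 0.0756; difference 0.43 ± 0.11, adjusted p = 0.0278). Dnajb9, raised by LPS in both genotypes, went from 9.55 and 8.75 to 18.0 and 16.8 TPM in Vim-KO, a smaller rise than in WT (difference -0.44 ± 0.13, adjusted p = 0.0469). The remaining members called were Dnajb14 (0.73), Dnajc7 (0.43), Dnajc2 (0.30), Dnajc25 (-0.62) and Dnajb6 (-0.28), and all of them but Dnajc7 lost the call when at least 5 of the 8 libraries were left out in turn. After scaling, Dnajb14 (0.60, adjusted p = 0.0982) and Dnajc2 (0.18, adjusted p = 0.194) did not pass either. Hspa4l and Dnajb9 lost it for 7 and 8 of the 8 (adjusted p up to 0.103 and 0.15), and Hsp90ab1 for 3 (up to 0.069). Dnajc7 and Hspa8 kept it for each library left out, as did Hspb8.

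**Figure D4:**
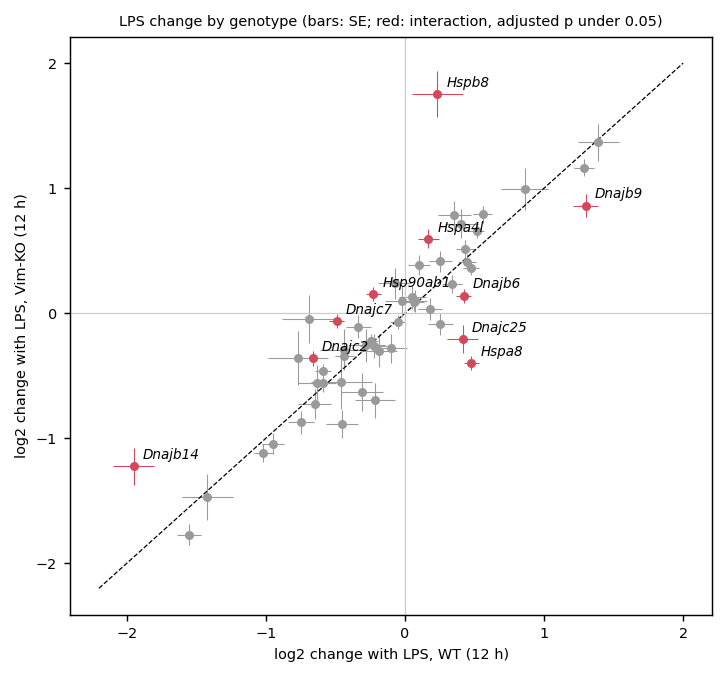
Log2 change with LPS at 12 h in WT (x axis) and in Vim-KO (y axis) for the 54 members tested (points; bars are SE; the dashed line marks equal changes; red marks a difference with adjusted p under 0.05). Most points lie near the line; Hspa8 lies right of 0 and below it, and Hspb8 far above the line.

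The partners outside the families were read from a list of 44 heat shock factors and co-chaperones, 40 of them tested. With LPS at 24 h 2 rose (5%) and 19 fell (47.5%), beside 20.9% and 45.1% of all genes, so the share that fell lay near that of all genes (11 rose and 16 fell after scaling). Bag2, a nucleotide exchange factor, was at 7.54 ± 0.783 TPM with LPS against 32.8 ± 0.701 TPM with PBS (mean ± SD, n = 2; -1.99 ± 0.11, adjusted p = 6.61e-06), and Sdf2l1, an ER co-chaperone, at 164 ± 8.21 against 333 ± 3.52 TPM (-1.02 ± 0.06, adjusted p = 6.34e-06). With CTM 16 were higher than with LPS (40%) and 1 lower (2.5%), beside 16.1% and 9.45% of all genes (12 and 2 after scaling). The largest differences were those of Bag2 (0.92 ± 0.11, adjusted p = 0.00183), Sdf2l1 (0.86 ± 0.06, adjusted p = 0.000344), the HSP110-like ER exchange factor Hyou1 (0.71 ± 0.07, adjusted p = 0.000892) and the HSP90 co-chaperone Fkbp4 (0.65 ± 0.05, adjusted p = 0.000546). With LPS at 12 h in WT 5 rose (12.5%) and 24 fell (60%), beside 17.8% and 53.1% of all genes (14 and 14 after scaling). Hyou1 was among those that rose (0.77 ± 0.10, adjusted p = 0.000163). The heat shock factor gene Hsf1 fell in WT, to 31.6 ± 1.25 from 51.9 ± 3.75 TPM (-0.70 ± 0.09, adjusted p = 0.000193). In Vim-KO against WT with PBS 12 were higher (30%) and 6 lower (15%), beside 17.7% and 25.4% of all genes (16 and 4 after scaling). With LPS 18 were higher (45%) and 4 lower (10%), beside 24.1% and 20.6% of all genes (16 and 7 after scaling). Among those higher were HSP90 partners. Ahsa1, which activates the HSP90 ATPase, was at 503 ± 4.53 TPM in Vim-KO against 282 ± 4.20 TPM in WT with PBS (0.83 ± 0.06, adjusted p = 2.04e-05). Ppid was at 275 ± 20.9 against 127 ± 7.43 TPM with LPS (1.11 ± 0.08, adjusted p = 3.26e-05).

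The liver values list 5298 genes, each differing 2-fold or more between the libraries of WT with LPS and WT with PBS, and 24 members are among them. The other 48 members, Hspa8, Hsp90aa1, Hsp90b1 and Hspd1 included, were not analysed there. Presence, direction and size in that comparison follow from how the list was made, so they are given as values and nothing is read from them. With 1 library per group no test was made. With LPS in WT 8 listed members were higher and 16 lower, and 16 of 24 were at least 2-fold apart on log2(TPM + 1), beside 66.9% of all genes listed. From PBS to LPS, Hspa5 stood at 212.7 and 700.6 TPM, Hspb8 at 79.8 and 324.8 TPM, and Dnajb9 at 43.6 and 158.9 TPM. In the same order Hsp90ab1 stood at 590.2 and 245.9 TPM, Hsph1 at 13.3 and 3.20 TPM, and Dnajb4 at 10.6 and 1.98 TPM.

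The following comparisons bring in liver libraries that did not shape the list. Those of CTM with LPS and of TG2-KO with WT still have on 1 side a WT library that did, so their values too are descriptions within a selected list. With CTM added to LPS 1 of 24 members was at least 2-fold apart, where 1.59% of all listed genes were: Hspa1b, at 0.93 TPM under LPS alone, 10.2 TPM once CTM was added and 5.21 TPM under PBS. Hspa5 was at 1003.6 TPM with CTM, the highest of the 7 libraries. With macrophage depletion 1 of 24 was at least 2-fold apart (8.83% of all listed): Hspb7, a small heat shock protein known from heart muscle, at 9.76 TPM with depletion and 0.58 TPM without, and at most 0.68 TPM in the other 5 livers. Of 4 listed Kupffer cell markers the sum was 62.9 TPM without and 10.2 TPM with depletion, and that of 4 neutrophil markers 98.6 and 188.4 TPM. Most of the neutrophil sum was S100a8 (45.09 and 85.13 TPM) and S100a9 (45.05 and 95.02 TPM). Retnlg was at 7.14 and 7.85 TPM, and Cxcr2 went the other way (1.34 and 0.37 TPM). The part of these markers in the Hspb7 value was not tested. The LPS liver of this pair held 387.6 TPM of Hspa5 and 71.7 TPM of Dnajb9 against 700.6 and 158.9 TPM in the other WT LPS liver; the pair was extracted on another date.

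In TG2-KO livers LPS moved Hspa5 from 300.7 TPM to 471.7 TPM, and 3 of 24 members were at least 2-fold apart (31.9% of all listed genes). Hspa2 was higher (4.32 and 10.03 TPM), and Dnajb4 (9.14 and 2.42 TPM) and Dnajc28 (2.36 and 0.25 TPM) were lower. Dnajb9 was at 96.8 TPM (PBS) and 50.2 TPM (LPS) in TG2-KO. Its order in WT was the opposite, but that order follows from how the list was made, so no genotype contrast is read from it. Between TG2-KO and WT with PBS 2 of 24 were at least 2-fold apart (7.7% of all listed), Hspb8 (194.6 against 79.8 TPM) and Dnajb9 (96.8 against 43.6 TPM), both higher in TG2-KO. With LPS 2 were (6.3% of all listed), Dnajb9 (50.2 against 158.9 TPM) and Hspa13, an HSP70 of microsomes (8.04 against 18.3 TPM), both lower in TG2-KO. Tgm2 was at 0.74 TPM and 15.5 TPM in the TG2-KO livers with PBS and LPS and at 35.7 TPM and 424.8 TPM in WT. RNA of the livers was extracted on 3 dates and the TG2-KO date was shared by no WT liver, so genotype and date cannot be told apart. The summed neutrophil markers were 1.37 TPM in WT and 27.4 TPM in TG2-KO with PBS, and their part in these values was not tested.

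**Figure D5:**
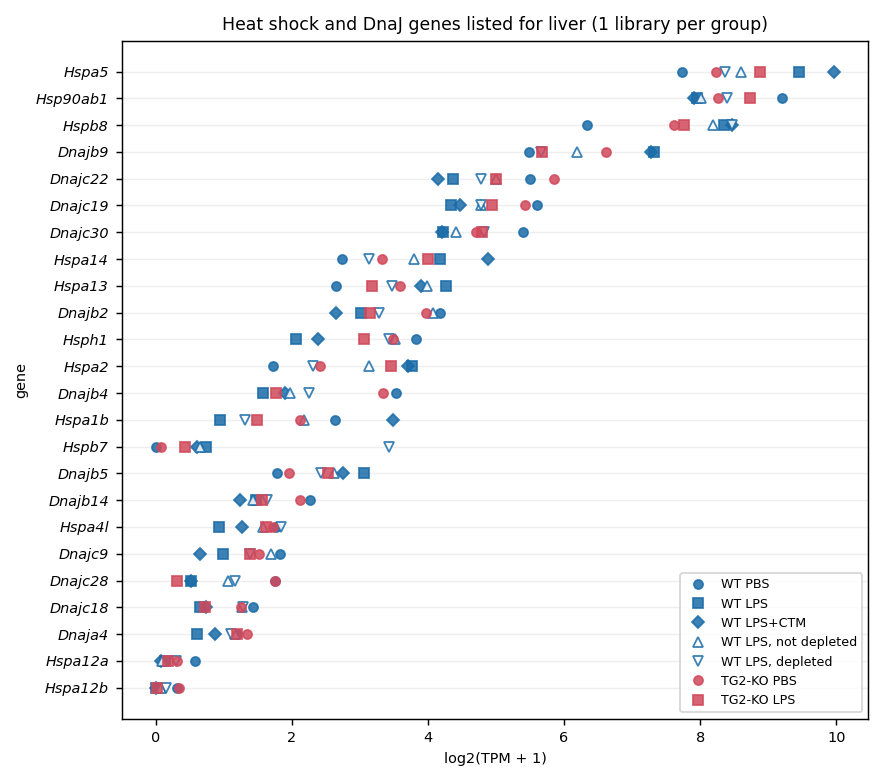
Level of the 24 members listed for liver, as log2(TPM + 1), in 7 libraries (1 point per library and no error bars, since each group has 1 library; red is TG2-KO, open symbols are the depletion pair). Hspa5 is highest with LPS plus CTM (1003.6 TPM), Hspb7 stands out with macrophage depletion (9.76 TPM), and Hspa1b is lowest in WT with LPS (0.93 TPM).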

How the data were processed

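The authors deposited TPM of 21 libraries. The tool Salmon and the builds mm10 and GRCm38 are named per the submitters' processing notes; their roles, versions and the annotation are not given in the sources used here. TPM keep no read numbers, so library depth and its counting error are unknown; reads were not used. Genes averaging 1 TPM or more in a cell line experiment (11030 at 24 h, 11115 at 12 h) entered limma 3.58.1 (R 4.3.3) as log2(TPM + 1). A linear model per experiment held all of its groups, with a trended variance and without a replicate term, and p-values of every gene tested were adjusted together (Benjamini-Hochberg, threshold 0.05). Fold changes are on that scale and understate those of low genes. Liver differences of log2(TPM + 1) were counted at 1 or more. Values were tabulated with pandas 2.3.3 and numpy 2.4.6 and drawn with matplotlib 3.10.9. The fit was tested on simulated data.

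The members, gene lists and tests were chosen with earlier results of these data known. Genes named are 18 members in every comparison, up to 10 largest rises and falls per comparison past the threshold (no overlap between groups, at least 5 TPM in the higher group), all members with a called genotype difference, all listed in liver and up to 4 co-chaperones per comparison; part of them is given. Hsf1, Dnajb5 and, at 12 h, Hyou1 were named after their values were seen. At 24 h the LPS and CTM columns are numbered 2 and 3 and the labels 1 and 2, so these columns were matched to groups and not to single samples. The closing section gives the alternatives: other pseudocounts (0.1) and filters (none, 5 TPM), scaling between libraries by median ratios, no variance trend, fewer groups in the fit, a replicate block, a minimum log2 change of 1, and single libraries left out.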

Additional observations from a re-analysis of the deposited data

Results flagged for a closer look

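For 10 members the change with LPS at 12 h differed between Vim-KO and WT cells by the limma test of the difference (log2, change in Vim-KO minus change in WT). It was larger or less negative in Vim-KO for Hspb8 (1.52), Dnajb14 (0.73), Dnajc7 (0.43), Hspa4l (0.43), Hsp90ab1 (0.38) and Dnajc2 (0.30). It was smaller or of opposite sign in Vim-KO for Hspa8 (-0.88), Dnajc25 (-0.62), Dnajb9 (-0.44) and Dnajb6 (-0.28). Of 54 members tested, 6 were thus higher and 4 lower, beside 13.7% and 6.96% of all genes, so both shares lay near those of all genes. Hspb8 passed the filter of 1 TPM only through its Vim-KO libraries.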

How the results depend on the processing

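Of 160 changes of named members in the 8 comparisons, recomputed under 1739 alternatives, 1544 kept direction and side of the threshold, 191 no longer passed and 4 turned. All 4 turned with median-of-ratios scaling: Hsp90ab1 at 24 h with LPS (0.027), Hsp90ab1 (0.16) and Hspa4 (0.14) at 12 h in WT with LPS, and Hspa4 (0.039) in Vim-KO with LPS. Scaling also changed counts of members, to 6 lower with CTM than with LPS, 16 higher with LPS plus CTM than with PBS, 27 higher and 11 lower with LPS in WT, 26 higher with LPS in Vim-KO, and 3 higher for the genotype difference of the LPS change. With a minimum log2 change of 1, the higher and lower members were 1 and 4 for LPS at 24 h, 0 and 1 for CTM against LPS, and 1 and 2 for CTM against PBS. At 12 h they were 3 and 4 for LPS in WT, 3 and 5 in Vim-KO, 2 and 1 for Vim-KO against WT with PBS, 4 and 0 with LPS, and 1 and 0 for the genotype difference. Without the filter, 10 members were lower in Vim-KO with PBS and 2 lower for the genotype difference. Leaving out each library in turn gave 1 to 3 members lower for CTM against LPS (1 without the CTM library numbered 3), 12 to 15 higher in Vim-KO with PBS, and 3 to 5 lower (3 without the Vim-KO PBS library numbered 2). It gave 2 to 5 higher and 1 to 4 lower for the genotype difference, where most single libraries moved the count; among its 10 members, Hspa8, Hspb8 and Dnajc7 kept the call without any single library. In liver, a pseudocount of 0.1 gave 2 members at least 2-fold apart for depletion, 5 for LPS in TG2-KO and 5 for TG2-KO against WT with LPS. With the replicate number as a block, 4 members were higher and 1 lower for the genotype difference; other counts of members stayed within 1.5 times. Deviations of same-numbered libraries from their group means correlated at -0.22 to 0.098 at 12 h and at -0.03 for CTM against LPS. These values show no pairing by number, and with 2 libraries per group they cannot exclude it. No paired analysis was possible because the columns share fewer than 2 numbers for LPS and for LPS plus CTM against PBS at 24 h. Depth is unknown for TPM, and levels under 1 TPM were not tested.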
